A study of Oryza sativa with 35 samples.

Results

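The 2 rice lines Koshihikari and NIL-Gn1 were compared in the 9 inflorescence libraries labelled R4 or R5, out of 35 libraries in the series. These were all libraries with either code: 3 from NIL-Gn1 (1 at R4, 2 at R5) and 6 from Koshihikari (3 at R4, 3 at R5). The remaining 26 libraries, 16 from NIL-Gn1 and 10 from Koshihikari, carried the codes R1 and R2. Koshihikari is a japonica cultivar. The name NIL-Gn1 marks a near-isogenic line for Gn1, a locus of grain number per panicle where the gene Gn1a, which encodes cytokinin oxidase OsCKX2, lies. Neither the allele of NIL-Gn1 nor its background is stated in the labels, and the R codes are not defined there. In what follows R4 and R5 are called late and R1 and R2 early, after the order of the codes. All plants were grown in short days in climate chambers, and the labels name no treatment.

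RNA was measured by CEL-Seq2, which tags each RNA molecule near its 3′ end with a unique molecular identifier (UMI), so that UMIs rather than reads are counted. Levels are given as CPM, UMI counts scaled to the library total and to a normalization factor per library (TMM). They are not corrected for gene length, since 1 molecule gives 1 tag. Late Koshihikari libraries held 106508 to 135923 UMIs (median 112866, n = 6), whereas the NIL-Gn1 libraries held 290643 at R4 and 201920 and 76743 at R5. In all, late Koshihikari held 706796 UMIs and late NIL-Gn1 569306. UMI numbers given per line below are not scaled for this. When a locus had 0 UMIs over the late libraries of a line, levels up to 4.24 CPM in Koshihikari or 5.27 CPM in NIL-Gn1 remained possible. These limits use the library totals without the TMM factor. Whether the libraries of a group come from different plants is not stated in the labels; p-values therefore measure the spread between libraries, which may be technical. The KNOX gene OSH1, a marker of meristem cells, had 137 UMIs in late Koshihikari and 129 in late NIL-Gn1. OsMADS14, a MADS-box gene of the inflorescence meristem, had 186 and 112. Scaled for depth, the log2 difference of NIL-Gn1 against Koshihikari was 0.21 for OSH1 (edgeR adjusted p = 0.747) and -0.43 for OsMADS14 (0.401). Other meristem markers went both ways: TAW1 was 1.62 (edgeR adjusted p = 4.83e-05), OSH15 0.77 (0.269) and OsMADS15 -0.51 (0.164). OSH71, OsMADS34, LOG and OSH43 were too rare to test. Late Koshihikari and late NIL-Gn1 held 38 and 22 UMIs of OSH71 and 39 and 27 of OsMADS34. For LOG the numbers were 12 and 3, and for OSH43 0 and 1. Floral organ identity genes were sparse, with 11 of 15 detected in late tissue and 2 of 15 abundant enough to test.

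The rice panicle forms when the inflorescence meristem lays down branches and then turns to making spikelets. TAW1 belongs to the ALOG family of small nuclear proteins and is known to hold meristems in the branching phase, delaying spikelet formation, while MADS-box genes of the AP1/FUL group promote the passage towards flowers. Cytokinin oxidases break down cytokinin, the hormone that sustains the meristem, and a weaker OsCKX2 is known to raise grain number.

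OsCKX2 (LOC_Os01g10110) had 0 UMIs in all 9 late libraries, so no line difference in it was detectable at this depth and it could not serve to check the line labels. Of the 17 cytokinin genes listed (oxidases and type-A response regulators), 10 were detected in late tissue and 0 passed the filter on low counts. The most abundant was the response regulator OsRR2, with 55 UMIs in late Koshihikari and 39 in late NIL-Gn1.

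Late NIL-Gn1 held more RNA of 3 ALOG genes than late Koshihikari. TAW1 was 3.08-fold higher, G1L2 3.47-fold higher and G1L1 2.37-fold higher. Among all loci, 66 of 2927 tested loci were called (edgeR quasi-likelihood test with the R code as covariate, adjusted p under 0.05), 38 higher and 28 lower in NIL-Gn1. This is 2.25% of tested loci, with 1.3% called higher and 0.957% called lower. All 3 ALOG genes that passed the filter were among the higher loci. The gene lists were chosen with earlier results of these data known, so this count is a description only. In bulk tissue, more cells of a type and more RNA per cell cannot be told apart.

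TAW1 (LOC_Os10g33780) stood at 116, 72.3 and 255 CPM in the Koshihikari R4 libraries and at 186, 77.8 and 122 CPM in those of R5. In NIL-Gn1 it stood at 384 CPM at R4 and at 371 and 479 CPM at R5. Each NIL-Gn1 library lay above all 6 Koshihikari libraries, and the means were 411 ± 59.0 CPM (SD, n = 3) against 138 ± 70.3 CPM (n = 6). The log2 fold change was 1.62 (SE 0.256, edgeR adjusted p = 4.83e-05). Permuting the line labels within R codes on log2(CPM + 1), as an exact two-sided test, gave p = 0.025, the smallest that its 40 assignments allow.

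G1L1 (LOC_Os02g07030), an ALOG relative of TAW1, stood at 125, 145 and 157 CPM in Koshihikari R4 and at 67.6, 97.2 and 45.8 CPM in Koshihikari R5. NIL-Gn1 libraries stood at 264 CPM at R4 and at 196 and 186 CPM at R5. The lines did not overlap, and each NIL-Gn1 library was higher at either R code. Over both codes the log2 fold change was 1.25 (SE 0.280, edgeR adjusted p = 0.00536). Taken by code, it was 0.95 at R4, on 1 NIL-Gn1 library. At R5 it was 1.56 (SE 0.412, edgeR adjusted p = 0.0550) and was not called. G1L1 lost its call without the NIL-Gn1 R4 library (edgeR adjusted p = 0.0685), without NIL-Gn1 R5 replicate 1 (0.0767) and in the fit that blocks on replicate number (0.0911). Its adjusted p ranged from 0.00385 to 0.0911 over 18 alternative settings.

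G1L2 (LOC_Os06g46030), another ALOG gene, stood at 116, 90.4 and 128 CPM in Koshihikari R4 and at 42.3, 19.4 and 7.63 CPM in Koshihikari R5. NIL-Gn1 libraries stood at 213 CPM at R4 and at 196 and 119.8 CPM at R5. The lines overlapped when the codes were pooled, because the lowest NIL-Gn1 R5 library lay within the Koshihikari R4 range, but within each code every NIL-Gn1 library was the higher. The log2 fold change was 1.79 (SE 0.360, edgeR adjusted p = 0.00133), and without NIL-Gn1 R5 replicate 1 the call was lost (1.39, edgeR adjusted p = 0.0893, in a range of 3.08e-05 to 0.0893 over 18 settings).

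**Figure D1:**
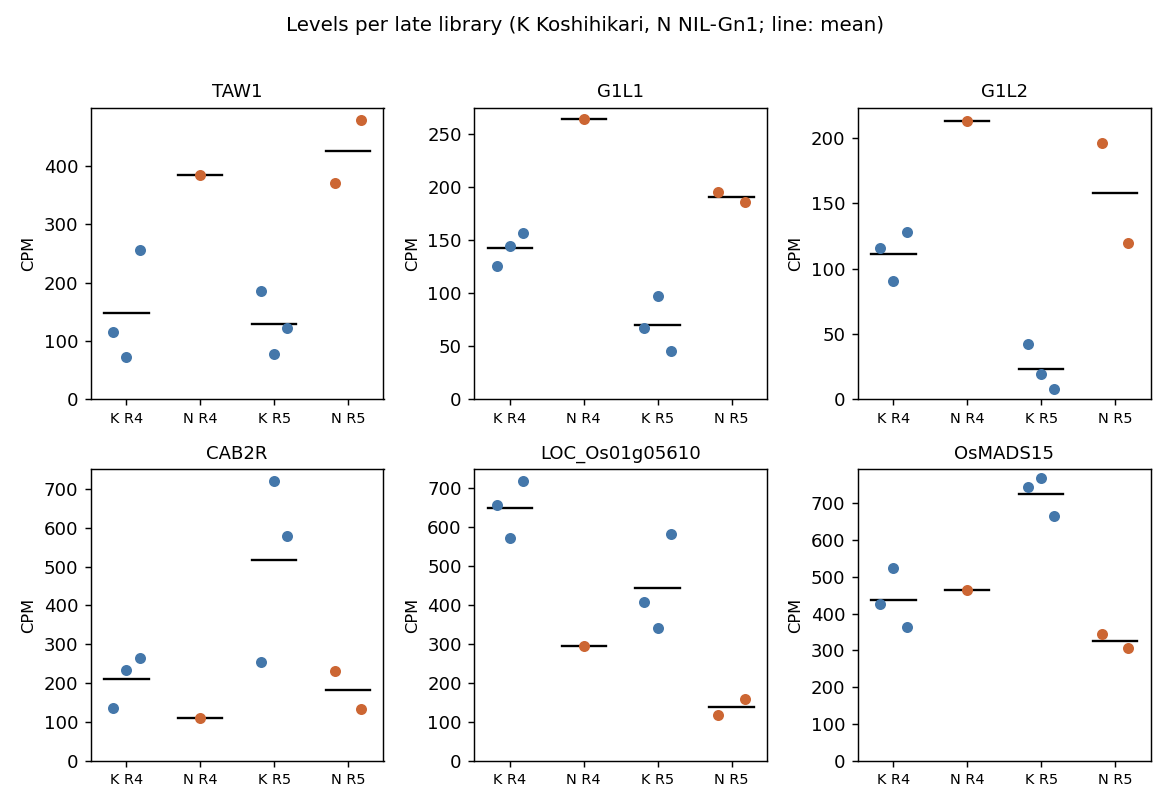
Levels in CPM (vertical axes, linear) of 6 named genes in each of the 9 late libraries, Koshihikari (K, blue) and NIL-Gn1 (N, orange) by R code; horizontal lines are means. TAW1 and G1L1 are higher in all 3 NIL-Gn1 libraries than in any Koshihikari library and LOC_Os01g05610 is lower, whereas for OsMADS15 the NIL-Gn1 libraries lie below the Koshihikari range at R5 and within it at R4.

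All 10 listed ALOG genes were detected in late tissue, and the 7 that fell below the filter were rare. G1L3 had 29 UMIs in late Koshihikari and 61 in late NIL-Gn1, G1L4 had 6 and 29, and G1L6 had 22 and 31. In a fit of all 35 libraries, where these 3 could be tested, their late log2 differences were 1.17 (edgeR adjusted p = 0.140), 2.70 (0.125) and 0.82 (0.594), none of which was called. G1, the founding member, had 3 and 6 UMIs, and G1L9 had 9 and 7. G1L7 and G1L8 had at most 2 UMIs in either line. The summed ALOG level was 389 to 775 CPM in Koshihikari R4, 298 to 340.4 CPM in Koshihikari R5, 1173 CPM in NIL-Gn1 R4 and 905 to 948 CPM in NIL-Gn1 R5.

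TAW1 and G1L2 differed between the lines more in late than in early tissue. In early tissue the log2 difference between the lines was -0.18 for TAW1 (edgeR adjusted p = 0.265), -0.08 for G1L2 (0.816) and 0.08 for G1L1 (0.781). The late difference minus the early one, fitted over all 35 libraries, was 1.73 for TAW1 (SE 0.234, edgeR adjusted p = 1.32e-07) and 1.99 for G1L2 (SE 0.348, 0.000137). For G1L1 it was 1.11 (SE 0.287), with an edgeR adjusted p of 0.0524 that missed the threshold. Among 7406 loci tested in this way 23 were called (0.311%), 16 with a higher late difference (0.216%) and 7 with a lower one (0.0945%).

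Early levels of TAW1 were 793 ± 102 CPM in Koshihikari (SD, n = 10) and 695 ± 91.5 CPM in NIL-Gn1 (n = 16), both above every late library. Late minus early, the log2 level of TAW1 was -2.54 in Koshihikari and -0.80 in NIL-Gn1, that of G1L2 was -2.44 and -0.45, and that of G1L1 was -2.04 and -0.93. These stage values share their late libraries with the line comparison and are set beside it only as description. The late minus early value was thus nearer to 0 in NIL-Gn1 for all 3 genes, a difference that passed the test above for TAW1 and G1L2.

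The late libraries of the lines also lay apart on the first principal component of all 35 libraries, which held 14.5% of the variance. Late Koshihikari libraries scored 32.2 to 43.6, late NIL-Gn1 libraries 16.2 at R4 and 23.5 and 14.6 at R5, and the early libraries of both lines -19.9 to -1.70. Every late NIL-Gn1 library lay between the early libraries and late Koshihikari. The late line difference in this score gave p = 0.025 (exact two-sided permutation within R codes), the smallest possible. The early libraries did not enter that test, so it says nothing of the position between them and late Koshihikari. Whether the position on this component went with the ALOG levels, and its part in the line differences, was not tested.

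**Figure D2:**
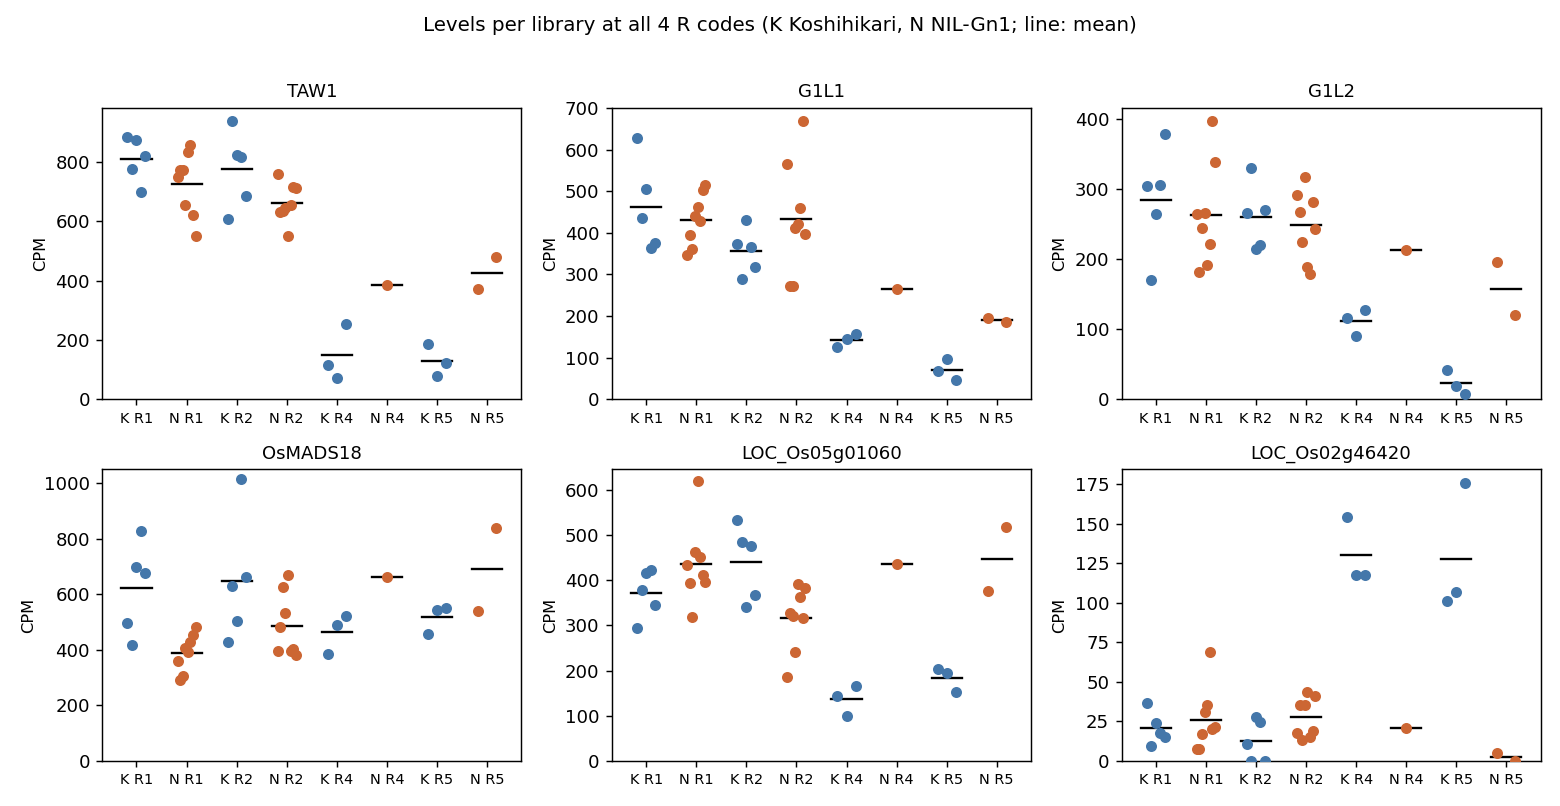
Levels in CPM (vertical axes, linear) per library at R1, R2, R4 and R5 for 6 genes, Koshihikari (K, blue) and NIL-Gn1 (N, orange); horizontal lines are means. TAW1, G1L1 and G1L2 overlap between the lines at R1 and R2 and are higher in NIL-Gn1 at R4 and R5, while LOC_Os02g46420 is high in late Koshihikari and low in the other groups.

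In the list of floral transition genes, 0 of 4 tested (OsMADS14, OsMADS15, OsMADS18 and the bZIP gene OsFD1, which rests on the list alone) were called over both late codes (median log2 difference 0.02, against 0.01 over all tested loci). OsMADS18 (LOC_Os07g41370), of the AP1/FUL group, stood at 386, 488 and 520 CPM in Koshihikari R4 and 456, 545 and 549.5 CPM in Koshihikari R5. NIL-Gn1 stood at 662 CPM at R4 and at 541 and 838 CPM at R5. The lines overlapped at the lower NIL-Gn1 R5 library, and the late log2 difference was 0.51 (SE 0.175, edgeR adjusted p = 0.110). In early tissue OsMADS18 was lower in NIL-Gn1 (-0.54, edgeR adjusted p = 0.00479), and the late difference exceeded the early one by 1.00 (SE 0.229, edgeR adjusted p = 0.0153).

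OsMADS15 (LOC_Os07g01820), also of the AP1/FUL group, stood at 425, 525 and 363 CPM in Koshihikari R4 and at 463 CPM in NIL-Gn1 R4. At R5 it stood at 744, 768 and 664 CPM in Koshihikari and at 345 and 306 CPM in NIL-Gn1. The NIL-Gn1 library lay within the Koshihikari range at R4, and both NIL-Gn1 libraries lay below it at R5. The log2 difference was 0.14 (SE 0.283, edgeR adjusted p = 0.938) at R4 and -1.04 (SE 0.249, 0.0209) at R5. The difference between these values, -1.18 (SE 0.373, unadjusted p = 0.00257, edgeR adjusted p = 1.00), was not called. Over both codes the value was -0.51 (edgeR adjusted p = 0.164).

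Taken by R code, 4 loci were called at R4 (0.137%) and 19 at R5 (0.649%), where 11 were higher (0.376%) and 8 lower (0.273%). The 4 at R4 were LOC_Os12g39970 and LOC_Os05g01060, higher in NIL-Gn1, and LOC_Os01g03020 and LOC_Os09g07570, lower; the last falls outside the rule for named genes and was chosen after its values were seen (log2 difference -2.62, edgeR adjusted p = 0.0205). The R4 comparison rests on 1 NIL-Gn1 library, which was assumed to vary like the other groups. At R5 the calls included G1L2 (2.91, SE 0.544, edgeR adjusted p = 0.00147), TAW1 (1.76, SE 0.355, 0.00304) and OsMADS15. The R5 count was 8 without NIL-Gn1 R5 replicate 1 and 34 without replicate 2, the shallowest library. The R4 count was 7 and 8 without these libraries.

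No locus (0%) was called for a line difference that itself differed between R5 and R4 by edgeR, DESeq2 or limma-voom in the 9 libraries, while 74 had an unadjusted edgeR p under 0.05. Of the 66 loci called over both codes, 66 had the same sign at R4 and R5, against 63.3% of all tested loci. The 66 were selected on the pooled values, so this count is a description only.

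In the list of branching and spikelet regulators, 1 of 6 tested was higher (TAW1, also counted in the ALOG list) and 0 were lower. The median log2 difference was 0.19. Over all tested loci 1.3% were called higher and 0.957% lower, and the median was 0.01. RFL, the rice relative of LEAFY that keeps panicle branching going, was 0.54 (SE 0.311, edgeR adjusted p = 0.390). DST, a zinc finger factor known to activate OsCKX2, was chosen after its values were seen and rests on the gene list alone. Its line difference was 0.56 in early tissue (edgeR adjusted p = 0.0397) and -0.06 in late tissue (0.941), and the change between these was not called (-0.66, 0.314). Among 8 tested meristem maintenance genes 0 were called (median 0.18). OSH15, a KNOX gene of the meristem, was 0.77 (SE 0.365, edgeR adjusted p = 0.269). The BELL gene qSH1 was -0.58 (0.464), with 0 UMIs in NIL-Gn1 R5 replicate 2.

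Of 2 tested floral organ identity genes 0 were called. DL (LOC_Os03g11600), a YABBY gene of carpel and leaf midrib, ranged from 29.2 to 145 CPM in late Koshihikari (n = 6) and stood at 196 CPM in NIL-Gn1 R4 and 113 and 239.5 CPM in NIL-Gn1 R5. The ranges overlapped, and the log2 difference was 1.00 (SE 0.335, edgeR adjusted p = 0.101). OsMADS32 was 0.18. The list of 7 YABBY genes had 3 tested and 0 called, among them OsYAB5 (-0.31).

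The SPL family, transcription factors many of which are targets of miR156, had 5 tested and 0 called (median -0.09). OsSPL10 was 0.37 between the lines (edgeR adjusted p = 0.769), while late minus early it was 4.87 in Koshihikari and 4.51 in NIL-Gn1. Growth-regulating factors had 7 tested and 0 called (median -0.11), with OsGRF8 at 0.51 and OsGRF10 at -0.50. Gibberellin genes had 4 tested and 0 called (median -0.02). The gibberellin receptor gene GID1 was 0.73 (SE 0.246, edgeR adjusted p = 0.101) and OsGA20ox1, which encodes a gibberellin synthesis enzyme and rests on the list alone, was -0.22 (0.718).

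**Figure D3:**
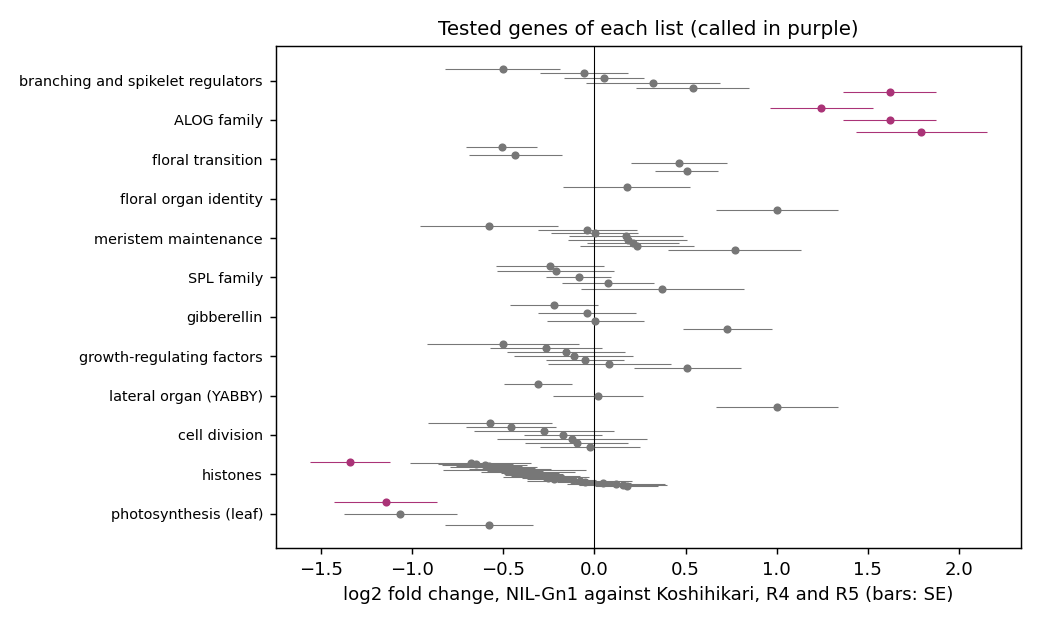
Late log2 fold changes of NIL-Gn1 against Koshihikari (horizontal axis) for every tested gene of 12 lists (vertical axis), each point 1 gene with its SE as a bar; genes in 2 lists appear in both. The called genes, in purple, are TAW1, G1L1 and G1L2 above 0, and the histone locus LOC_Os01g05610 and the chlorophyll-binding protein gene CAB2R below 0.

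Histone loci, whose RNA accumulates during DNA replication, had 1 of 25 tested called lower and 0 higher. Over all tested loci 0.957% were called lower and 1.3% higher. Their median log2 difference was -0.33 (21 of 25 negative), against 0.01 over all tested loci. The list rests on no RefSeq symbol, and near-identical histone copies can share tags, so single loci are uncertain. The called locus, LOC_Os01g05610 (listed as a histone H2B), stood at 656, 569.7 and 716 CPM in Koshihikari R4 and 406, 340.4 and 580.1 CPM in Koshihikari R5. NIL-Gn1 stood at 295 CPM at R4 and at 118 and 159.7 CPM at R5. All 3 NIL-Gn1 libraries lay below all 6 of Koshihikari, a 2.54-fold lower level (log2 fold change -1.34, SE 0.221, edgeR adjusted p = 6.32e-05). The locus was also lower in early NIL-Gn1 (-0.80, edgeR adjusted p = 1.04e-05), and its late and early differences were not shown to differ (-0.61, 0.312). LOC_Os01g06010, listed as another H2B, ranged from 1780 to 2218 CPM in late Koshihikari and from 979 to 1544 CPM in late NIL-Gn1, without overlap. Its difference of -0.47 (SE 0.138) missed the threshold (edgeR adjusted p = 0.0589).

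Summed histone levels were 17535 to 20566 CPM in Koshihikari R4, 15289 to 20654 CPM in Koshihikari R5, 16374 CPM in NIL-Gn1 R4 and 11069 to 15396 CPM in NIL-Gn1 R5. Cell division genes had 7 tested and 0 called, with all 7 negative and a median of -0.17. The mitotic kinase gene CDKB2;1 was -0.46 (SE 0.247, edgeR adjusted p = 0.348) and the mitotic cyclin gene CYCB2;2 was -0.57 (SE 0.342, 0.407).

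Photosynthesis genes, used here as leaf markers, had 1 of 3 tested called lower and 0 higher, with a median of -1.07. Over all tested loci 0.957% were called lower, and the median was 0.01. CAB2R (LOC_Os01g41710), a light-harvesting chlorophyll-binding protein, stood at 135, 235 and 265 CPM in Koshihikari R4 and 254, 719.6 and 580.1 CPM in Koshihikari R5. NIL-Gn1 stood at 109.8 CPM at R4 and at 232 and 133 CPM at R5. Each NIL-Gn1 library lay below all Koshihikari libraries of its own code, but the lines overlapped across codes. The log2 fold change was -1.15 (SE 0.284, edgeR adjusted p = 0.0220), and the exact permutation test gave p = 0.075. The call was lost in 9 of 18 alternative settings (adjusted p 0.000768 to 0.908), and with the replicate block the log2 value was -0.34 (edgeR adjusted p = 0.908). CAB1R, a close relative that can share tags with it, was -1.07 (SE 0.312, edgeR adjusted p = 0.101), and it was called lower in 6 of 18 alternative settings (adjusted p 0.000103 to 0.580).

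All 11 leaf markers were detected in late tissue, with 8 below the filter. Their summed level was 820 to 1619 CPM in Koshihikari R4, 1555 to 2565 CPM in Koshihikari R5, 559 CPM in NIL-Gn1 R4 and 719 to 1123 CPM in NIL-Gn1 R5. The defining Rubisco small subunit loci were rare in both lines, at 16 UMIs or fewer each in late Koshihikari and 5 or fewer in late NIL-Gn1. Within each code the summed leaf marker level was thus lower in NIL-Gn1, while the lines overlapped across codes. Only 3 of the 11 markers passed the filter, and the part of leaf markers in the line differences was not tested. Heat shock genes summed to 0 to 39.9 CPM in the late libraries, with 0 tested.

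Outside the lists, the higher loci with the smallest p are known here by locus identifier only. LOC_Os12g39970 stood at 19.3, 27.1 and 58.9 CPM in Koshihikari R4 and at 93.0, 175 and 30.5 CPM in Koshihikari R5, against 453 CPM in NIL-Gn1 R4 and 391 and 386 CPM in NIL-Gn1 R5. The lines did not overlap (log2 fold change 2.72, SE 0.320, edgeR adjusted p = 1.84e-06). It was also higher in early NIL-Gn1 (2.97, edgeR adjusted p = 1.44e-21), and the late difference minus the early one was -0.13 (edgeR adjusted p = 0.931). LOC_Os05g01060 stood at 145, 99.5 and 167 CPM in Koshihikari R4 and 203, 194 and 153 CPM in Koshihikari R5, against 436 CPM in NIL-Gn1 R4 and 376 and 519 CPM in NIL-Gn1 R5. Again every NIL-Gn1 library was the higher (1.51, SE 0.223, edgeR adjusted p = 1.02e-05). In early tissue this locus stood at 406 ± 74.7 CPM in Koshihikari (SD, n = 10) and 376 ± 98.4 CPM in NIL-Gn1 (n = 16), and its late and early differences differed by 1.59 (SE 0.245, edgeR adjusted p = 7.28e-06).

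The lower loci with the smallest p were nearly absent from late NIL-Gn1. They were picked on these same libraries, and the counting intervals below leave out that choice and the spread between libraries. LOC_Os01g03020 had 120 UMIs in late Koshihikari (136 to 235 CPM per library) and 5 in late NIL-Gn1, a ratio of 19.3 with an exact 95% counting interval of 8.06 to 60.6 (edgeR adjusted p = 5.89e-08). It was also lower in early NIL-Gn1 (-3.51). LOC_Os02g46420 had 87 UMIs in late Koshihikari (101 to 176 CPM per library) and 7 in late NIL-Gn1, 6 of them at R4, a ratio of 10.0 with an interval of 4.66 to 25.6 (edgeR adjusted p = 6.17e-05). In early tissue it was low in both lines, at 0 to 36.9 CPM in Koshihikari (median 16.5, n = 10) and 7.29 to 68.9 CPM in NIL-Gn1 (median 20.8, n = 16).

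**Figure D4:**
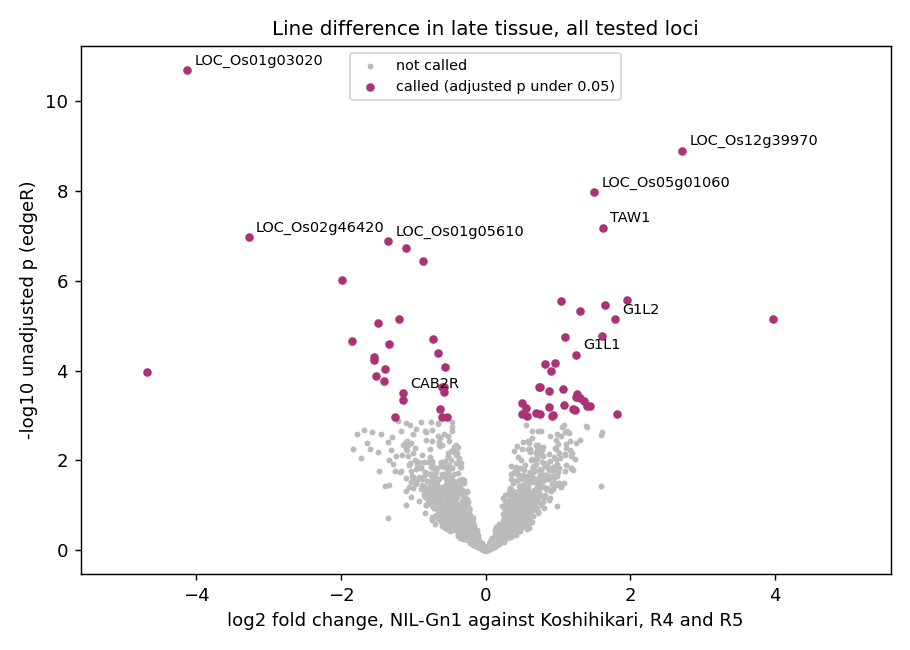
Late log2 fold change of NIL-Gn1 against Koshihikari (horizontal axis) against -log10 of the unadjusted edgeR p (vertical axis) for the 2927 tested loci; the 66 called loci are purple and 9 of them are labelled. Called loci lie on both sides, 38 higher and 28 lower.

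The late calls were set against those of the early tissue, which shares no library with it. Between the lines 110 of 3428 loci were called over R1 and R2 (3.21%), 32 higher (0.933%) and 78 lower (2.28%) in NIL-Gn1. Of the 66 late calls 59 were tested early, and 10 were called early with the same sign, 4 higher and 6 lower, while 0 were called with the opposite sign. These 10 are 15.2% of all late calls and 9.09% of all early calls, counting also calls not tested in the other tissue. Of the 110 early calls, 95 were tested in late tissue. Of all loci tested in late tissue, 2641 were tested early. Among those, 59 were called early with the sign of their late value and 36 with the opposite sign. The median early log2 difference was -0.07 for the loci higher in late NIL-Gn1 and -0.24 for those lower.

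**Figure D5:**
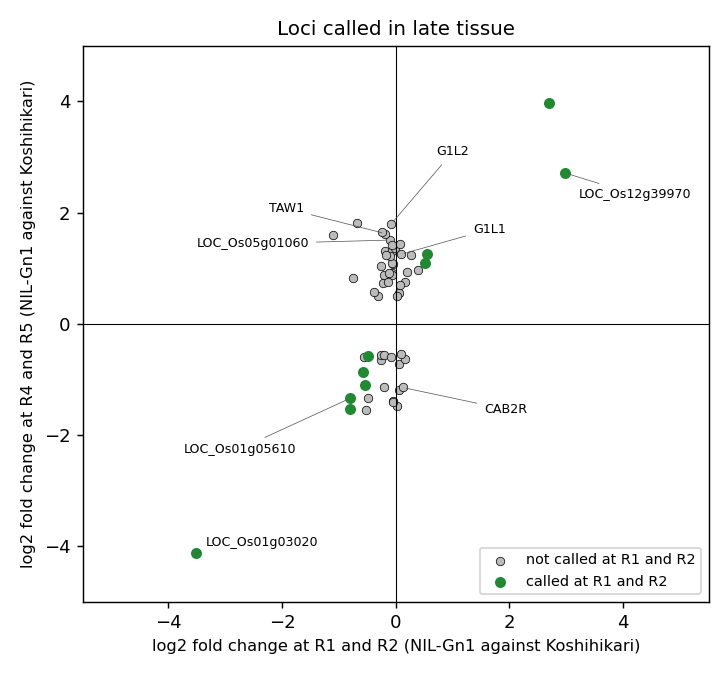
Line differences (log2, NIL-Gn1 against Koshihikari) at R1 and R2 (horizontal axis) and at R4 and R5 (vertical axis) for the 59 loci called in late tissue that were also tested in early tissue; the 10 called in both are green. TAW1, G1L1, G1L2 and LOC_Os05g01060 lie near 0 on the early axis, whereas LOC_Os12g39970 and LOC_Os01g03020 lie far from 0 on both.

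By position, taken from the locus names, the called share ran from 0% on chromosome 11 (0 of 106) to 4.40% on chromosome 9 (7 of 159), with 13 of 385 on chromosome 1. Among the 700 loci on each side of OsCKX2, 112 were tested and 8 called (7.14%), 3 higher and 5 lower, against 2.06% elsewhere. LOC_Os01g03020 and the histone locus LOC_Os01g05610 lie within this stretch. The stretch was set by a number of loci, and its relation to the segment carried by NIL-Gn1 is not known from the labels.

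The count of 66 calls depended on single NIL-Gn1 libraries: it was 24 without the R4 library and 29 without R5 replicate 1, and 27 in the fit with the replicate block. The split of 38 higher and 28 lower was 13 and 19 with DESeq2 and 34 and 50 with limma-voom. TAW1, LOC_Os01g05610 and the 4 loci without a gene name kept their calls in 18 of 18 settings.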

How the data were processed

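UMI counts for 55801 loci (MSU identifiers) in 35 libraries were deposited by the authors as raw, unnormalized values. Bowtie2 and Subread 2.1 are named per the submitters' processing notes; their roles, the build and the annotation are not given in the sources used here. Per the labels' protocols, 100 pg of RNA per library was amplified.

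Counts of the 9 late libraries were analysed with edgeR 4.0.16 in R 4.3.3 (TMM, filterByExpr, robust quasi-likelihood test, line and R code as terms), and separate R4 and R5 differences with 1 term per group. The filter kept 2927 loci (69.0% of UMIs); the biological coefficient of variation was 18.0%. The late minus early contrast and the stage values used all 35 libraries (7406 loci), and the early line difference the 26 R1 and R2 libraries. P-values were adjusted by Benjamini-Hochberg over all loci tested, and an adjusted p under 0.05 was called. The SE is the log2 value divided by the square root of F. CPM values use TMM factors of all 35 libraries; relative to those, the 9-library factors shift log2 differences by -0.08. The limit of a 0 is 3 counts. Limits and the 95% intervals cover counting error only. Permutation tests used a pseudocount of 1.

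Gene lists held 188 symbols; 9 that another chromosome, order or absence put in doubt were left out. Of 179 kept in 14 lists, 110 had the same chromosome and order in the RefSeq table (another assembly) and 69 rest on the hand-written list, such as DST, OsGA20ox1, OsMADS32, qSH1, OsSPL17, LHCB5 and all histones. The loci of G1L3 and G1L6 were exchanged after that check. The members and lists were chosen with earlier results of these data known. Named genes were OsCKX2, TAW1, called list genes, the top 2 tested genes of each list and the 2 higher and 2 lower called loci outside the lists with the smallest p.

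The code was tested on simulated counts. No library pair within a group was a duplicate (7 pairs, chi-square per degree of freedom at least 1.51). Other settings tried were scaling by RLE or upper quartile, 2 other filters, DESeq2 1.42.0, limma-voom 3.58.1, all 35 libraries, no R code, a block for replicate number, and omission of single libraries. The fit with the replicate block has nearly as many terms as libraries. It links the lines only through replicate number 2, so its values are imprecise. Plots were made in Python 3.11.15 with matplotlib 3.10.9.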

Additional observations from a re-analysis of the deposited data

Results flagged for a closer look

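Each of 5 named loci had a line difference in late tissue that differed from its line difference in early tissue by the edgeR test of that difference over all 35 libraries. The log2 value, late difference minus early difference, was 1.73 for TAW1, 1.99 for G1L2, 1.00 for OsMADS18, 1.59 for LOC_Os05g01060 and -4.32 for LOC_Os02g46420. For TAW1, G1L2 and LOC_Os05g01060 the lines differed in late tissue and were not called in early tissue. OsMADS18 was called lower in early NIL-Gn1 and was not called in late tissue. LOC_Os02g46420 rests on 87 UMIs in late Koshihikari and 7 in late NIL-Gn1, and it was too rare in early tissue to be tested there alone.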

How the results depend on the processing

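The late count of 66 loci became 32 with DESeq2 and 27 with the replicate block, and 24 to 70 when single libraries were left out; no called locus changed sign. It stayed within 1.5 times of 66 under the other scalings, filters, limma-voom (84), all 35 libraries (58) and no R code (52). The R4 count of 4 was 1 with DESeq2, 11 with all 35 libraries and 3 to 8 with single libraries left out. The R5 count of 19 was 6 with DESeq2, 9 with limma-voom and 8 to 34 with single libraries left out. The R5 minus R4 count of 0 was 1 with all 35 libraries (LOC_Os02g49760, chosen after its values were seen, edgeR adjusted p = 0.0297) and 0 with single libraries left out. The late minus early count of 23 was 45 without a filter, 18 with the replicate block and 19 to 33 with single libraries left out; it could not be fitted without the NIL-Gn1 R4 library. Among named genes OsSPL10 turned to -0.30 with the block and OsGA20ox1 to 0.10 without the NIL-Gn1 R4 library (-0.51 to 0.10 with single libraries left out), neither called. OsMADS15 was called without that library (-1.06, edgeR adjusted p = 0.0142, in a range of 0.0142 to 0.867). CAB1R gained a call in 6 of 18 settings, LOC_Os01g06010 in 3 and GID1 in 1, each in the direction reported. The cause of these changes was not tested. Of the replicate numbers the lines share only number 2, at R5. Same-numbered libraries correlated at -0.02 to 0.03 in their deviations from group means (4 pairs), and others at -0.06 to 0.06 (17 pairs). Counting noise at this depth lowers such correlations, and the single NIL-Gn1 R4 library has no deviation. This check therefore could not exclude a pairing by replicate number. TAW1 by permutation was 1.71, and 1.63 with a pseudocount of 10. Depth limits calls to abundant loci, and the R4 comparison rests on 1 NIL-Gn1 library.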
